A study of Mus musculus with 4 samples.

Results

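Interferon-stimulated genes are the genes that cells switch on when an interferon binds its receptor, and 39 of them were followed here in the livers of high-fat diet (HFD)-fed mice with and without hepatocyte Drp1. With earlier results of these data known, the 39 were chosen by gene symbol as known interferon targets from the array's 30204 gene names. Of these, 35 are typical targets of type I interferons and 4 (Gbp2, Gbp3, Igtp and Irgm1) are GTPases best known as interferon-gamma targets. All 39 were represented on the array, by 53 probes, and 36 of them were well above background on all 4 arrays. Herc6 and Ifit2 passed on 3 arrays and Oas3 on 2, which are the Drp1LiKO arrays.

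RNA from whole liver of male C57BL/6J mice was hybridized to 4 one-color Agilent arrays, 1 array per group. The groups were Cont and Drp1LiKO livers without a refeeding label, and Cont and Drp1LiKO livers taken after a fast of 17 h (16 h in the methods) and 4 h of refeeding. Cont mice carried the floxed Drp1 allele on both chromosomes per the methods, while the labels call them wild type. Drp1LiKO mice carried in addition a Cre transgene under the albumin promoter, which acts in hepatocytes. The paper calls the knockout liver-specific, and the state of the gene in the other liver cells was not measured here. All mice received HFD for 24 weeks per the labels, starting at 4 weeks of age per the methods. The labels of the 2 livers that were not refed name no feeding state. They are read as fasted from the methods, and are called livers without refeeding here. Because each group is 1 array, the spread between mice is not known and no test within a feeding state exists. Errors given below are the measurement SE of the scanner's error model, which covers the measurement of 1 array pair only.

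Type I interferons bind the receptor pair IFNAR1 and IFNAR2, whose kinases JAK1 and TYK2 phosphorylate STAT proteins, STAT2 among them. With IRF9 these form a complex that binds the interferon-stimulated response element (ISRE) in target promoters. Interferon-gamma signals through its own receptor pair to factors that bind the gamma-activated site (GAS). IRF7 is itself an induced factor that raises interferon production, and USP18 and SOCS1 damp the signal. In liver, hepatocytes, Kupffer cells and endothelial cells can all express these genes, so an array of whole liver cannot say which cell a transcript came from, and fewer cells of a type cannot be told apart from less RNA per cell.

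RefSeq promoter windows (GRCm38.p6, 250 bases before to 50 bases after a transcript start) were at hand for 30 of the 39 genes. No window was used for Usp18, Parp14, Rtp4, Zbp1, Mx2, Oas2, Dhx58, Mx1 and Parp9. The ISRE was searched as a pair of GAAA separated by any 2 bases, and the GAS as TTC and GAA separated by any 3 bases, on both strands. An ISRE match lay in the windows of 15 of the 30 genes, against 3.99% of all 27025 genes with a window. A GAS match lay in 8 of the 30 (26.7%), against 9.55% of all genes, and 2 of the 8 GAS matches overlapped an ISRE match. All 4 interferon-gamma-type genes held an ISRE match, and 11 of the 26 type I genes did (42.3%). Isg15 held 3 overlapping matches, the most among the 30 genes.

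The promoters shown are those of the 3 genes with the largest and the 3 with the lowest mean genotype difference, among genes well above background on every array with 1 window. Each is given 5′ to 3′ along the strand of its gene and ends at the last base before the transcript start, and capitals mark ISRE matches. The 3 genes that differed most between Drp1LiKO and Cont were Ifi44 (chr3:151749911-151750160, minus strand), Rsad2 (chr12:26456453-26456702, minus strand) and Oas1a (chr5:120907526-120907775, minus strand). The 3 lowest were Ifitm3 (chr7:141010745-141010994, minus strand), Ifi35 (chr11:101448162-101448411, plus strand) and Dtx3l (chr16:35939028-35939277, minus strand).
Ifi44: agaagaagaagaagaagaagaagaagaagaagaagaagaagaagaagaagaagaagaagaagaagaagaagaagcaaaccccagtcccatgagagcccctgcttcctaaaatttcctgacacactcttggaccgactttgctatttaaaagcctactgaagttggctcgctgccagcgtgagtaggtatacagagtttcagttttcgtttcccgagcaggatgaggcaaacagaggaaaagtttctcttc
Rsad2: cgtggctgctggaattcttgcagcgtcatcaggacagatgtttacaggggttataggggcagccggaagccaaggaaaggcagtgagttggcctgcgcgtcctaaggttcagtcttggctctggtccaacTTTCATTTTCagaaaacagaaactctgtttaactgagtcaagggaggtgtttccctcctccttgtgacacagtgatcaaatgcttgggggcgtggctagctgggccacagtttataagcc
Oas1a: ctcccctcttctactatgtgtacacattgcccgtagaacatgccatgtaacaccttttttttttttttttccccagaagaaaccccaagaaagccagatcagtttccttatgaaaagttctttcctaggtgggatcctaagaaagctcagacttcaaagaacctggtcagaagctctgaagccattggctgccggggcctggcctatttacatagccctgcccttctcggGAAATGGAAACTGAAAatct
Ifitm3: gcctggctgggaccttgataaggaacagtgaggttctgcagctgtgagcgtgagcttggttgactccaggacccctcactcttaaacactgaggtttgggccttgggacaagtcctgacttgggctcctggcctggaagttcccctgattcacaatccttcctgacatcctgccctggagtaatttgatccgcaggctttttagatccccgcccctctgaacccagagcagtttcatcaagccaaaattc
Ifi35: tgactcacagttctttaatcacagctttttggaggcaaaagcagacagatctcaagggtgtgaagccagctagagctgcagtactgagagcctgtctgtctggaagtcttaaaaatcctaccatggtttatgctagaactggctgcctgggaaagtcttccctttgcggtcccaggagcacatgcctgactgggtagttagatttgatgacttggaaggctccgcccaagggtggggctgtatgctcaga
Dtx3l: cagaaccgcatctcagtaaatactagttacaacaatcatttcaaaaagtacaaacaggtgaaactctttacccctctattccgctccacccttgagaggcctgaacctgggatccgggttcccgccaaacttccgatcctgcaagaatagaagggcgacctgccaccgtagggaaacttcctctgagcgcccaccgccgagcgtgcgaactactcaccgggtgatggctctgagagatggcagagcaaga

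The Rsad2 match begins 120 bases before the start, on the reverse strand. Oas1a holds an overlapping pair that begins 20 and 14 bases before the start. None of the other 4 printed stretches holds a match, although Ifitm3 has 2 matches downstream of its start, outside the stretch shown. Ifi44, with the largest mean difference of the 6, has no match to these letters. The 15 genes with an ISRE match had a median genotype difference of 0.74 without refeeding and 1.71 after it on the log2 scale, and the 15 without a match had 0.73 and 1.67. The 8 genes with a GAS match had medians of 0.07 and 0.90, and the 22 without one had 0.94 and 1.81, which is a description with no test.

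Signals are given as scaled signals, the processed signal divided by the 75th percentile of its array, so that 1 is the level of that percentile. The 75th percentile lay between 357 and 722, and between 48.7% and 58.2% of gene spots were well above background, with the higher value on the Drp1LiKO array of each pair in both measures. The targeted gene itself, Dnm1l, which encodes Drp1, differed by -0.21 (SE 0.20) without refeeding and by -0.12 (SE 0.20) after it on the log2 scale. Whether its probe lies in the deleted exons is not given in the sources used here, so this does not check the labels. A difference was called when it reached 2-fold. A gene that was dim on 1 array of a pair was set against that array's detection floor, the lowest signal there that still passed the background filter, and the resulting bound is written as at least.

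**Figure D1:**
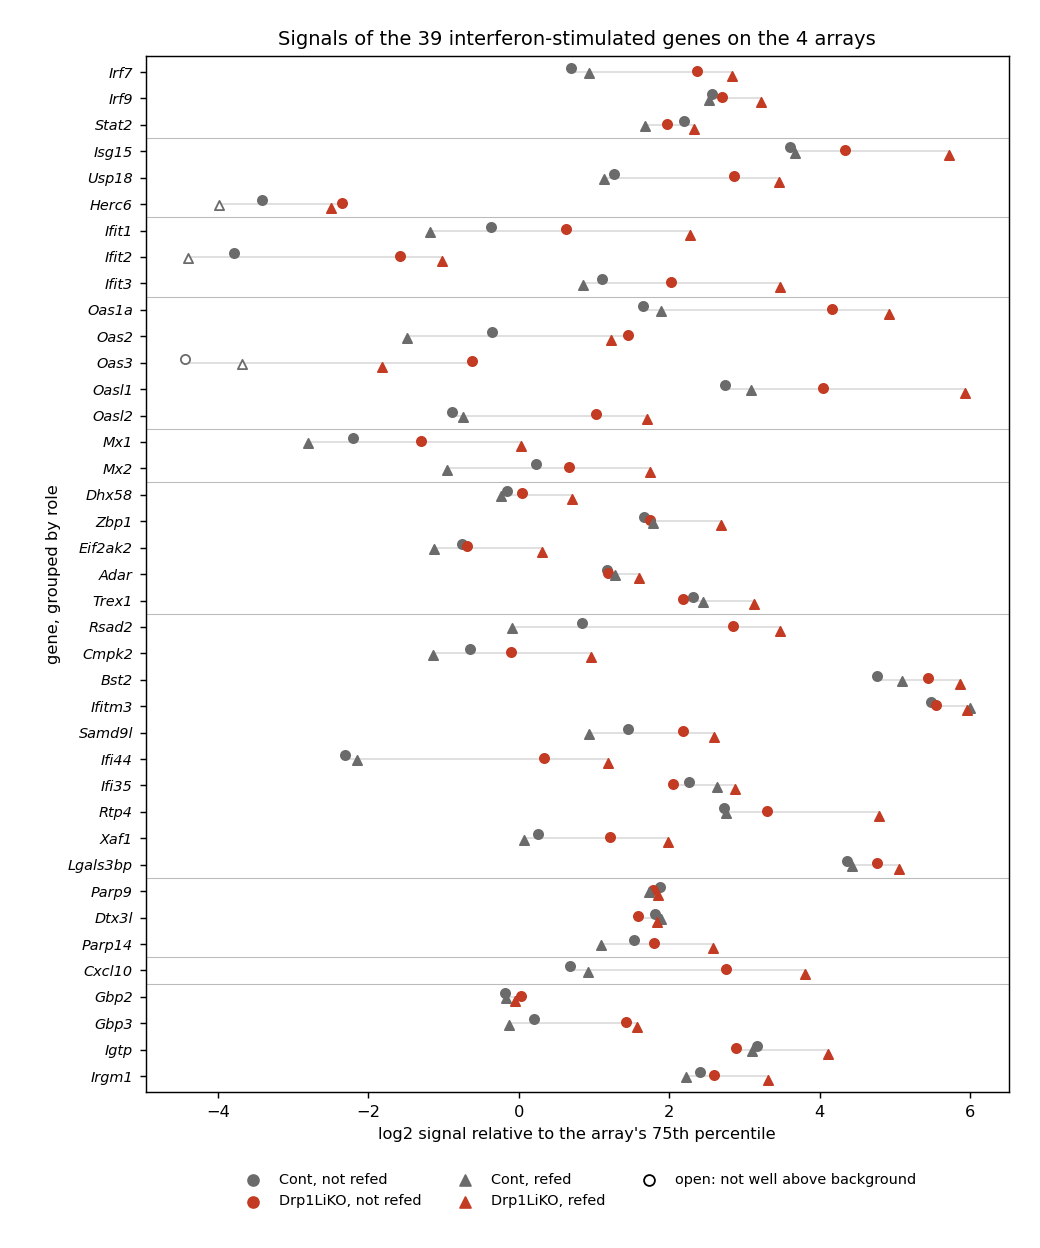
Signal of each of the 39 genes on the 4 arrays, as log2 of the signal relative to the array's 75th percentile, with roles separated by lines. Circles are livers without refeeding, triangles refed livers, grey Cont and red Drp1LiKO, and open symbols are not well above background. The red symbols lie to the right of the grey ones for Irf7, the OAS family and Ifi44, while the 4 symbols of Parp9, Dtx3l, Ifitm3 and Gbp2 lie close together.

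In livers without refeeding, 33 of the 39 genes were higher in Drp1LiKO than in Cont, against 42.1% of all genes with a difference. The other 6 were lower, none of them by 2-fold. At least 2-fold higher were 13 of the 39 genes, against 4.31% of the 17946 genes measured in this pair that were higher and 5.03% that were lower (9.34% in either direction). The median difference of the 39 was 0.68 on the log2 scale, or 1.61-fold, while the median of all genes was -0.10. Above 2 measurement SEs were 24 genes and none was below -2 SEs, against 11.1% and 20.1% of all genes. Among genes well above background on all 4 arrays, 10 of 36 were 2-fold higher, against 394 of all 14387 (6.05% changed in either direction). The OAS family led the 13, with all 5 genes called, Oas3 by a bound. Irf7, Usp18, Herc6, Ifit2, Rsad2, Ifi44, Cxcl10 and Gbp3 made up the rest of the 13.

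After refeeding the difference was wider. At least 2-fold higher in Drp1LiKO were 26 of the 39 genes, while 2 were lower and neither of them by 2-fold. Of all 17366 genes measured, 4.03% were 2-fold higher and 6.34% were 2-fold lower (10.4% in either direction). The median rose to 1.71 on the log2 scale, or 3.28-fold, with a median of -0.06 over all genes. Above 2 measurement SEs were 33 genes and none was below -2 SEs, against 11.9% and 20.3% of all genes. Among genes well above background on all 4 arrays, 23 of 36 were 2-fold higher, against 449 of all 14387 (7.12% changed in either direction). All 13 genes called without refeeding were called again after it, which is 33.3% of the 39, against 1.61% of the 16446 genes measured in both pairs. Of the 13, Oas3 passed the background filter in the Drp1LiKO livers only, so it could only be called higher. Herc6 and Ifit2 were dim in refed Cont, so after refeeding they could not be called lower. Among 16031 genes ranked by their difference after refeeding, 13 of the 39 were in the top 100, Ifit2 among them by a bound. Without refeeding 3 were in the top 100 of 16819, Oas3 among them by a bound. The genotype difference was larger after refeeding for 35 of the 39 (89.7%), against 54.0% of all genes with both differences. The exceptions were Oas3 and Herc6, whose values include bounds, and Gbp2 and Ifitm3. Both Drp1LiKO livers were above both Cont livers for 30 of the 39, as they were for 18.8% of 18866 genes that passed the background filter on 1 array or more.

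**Figure D2:**
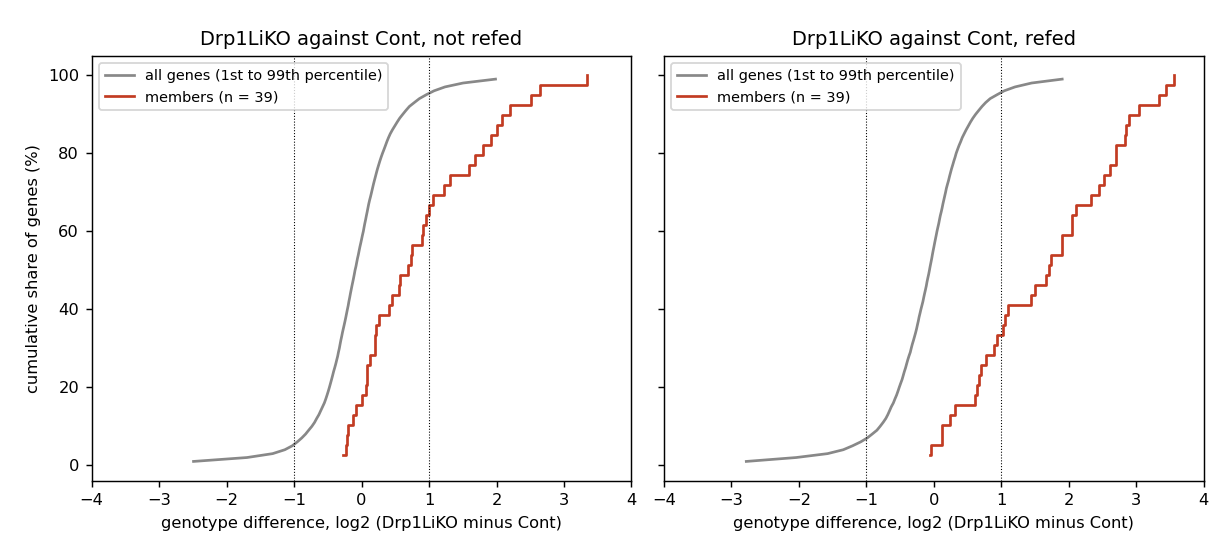
Cumulative share of genes (%) against the genotype difference on the log2 scale, without refeeding (left) and after refeeding (right), for the 39 genes (red) and for all genes with a difference (grey, from the 1st to the 99th percentile). Dotted lines mark 2-fold. The red curves lie to the right of the grey ones over their whole range, with medians of 0.68 and 1.71 against -0.10 and -0.06.

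The only test that the arrays allow pools both feeding states. A limma model with 1 term for genotype and 1 for feeding, left with 1 residual degree of freedom and no interaction, called none of 16663 genes (0%) for genotype at an adjusted p under 0.05, and 4738 genes had an unadjusted p under 0.05. Of the 39 genes, 23 had an unadjusted p under 0.05, against 28.4% of all genes, and the smallest adjusted p was 0.0693, that of Oas1a. When only genes that passed the background filter everywhere entered, limma called 1232 of 14387 genes (8.56%), among them 12 of 36 of the present genes, all higher in Drp1LiKO. For feeding it called 16 genes there (0.111%) and none of the 36, of which 7 had an unadjusted p under 0.05, against 33.5% of all genes.

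Of the transcription factors of the pathway, only Irf7 was called. IRF7, the induced amplifier of the response, had a scaled signal of 1.62 in Cont, 5.18 in Drp1LiKO, 1.91 in refed Cont and 7.12 in refed Drp1LiKO. Both Drp1LiKO livers were above both Cont livers, by 3.20-fold without refeeding (log2 difference 1.68, SE 0.20) and by 3.72-fold after it (1.90, SE 0.20). Irf9, the DNA-binding partner of the STATs, read 5.94, 6.48, 5.76 and 9.34 in the same order, with the refed Drp1LiKO liver the highest. Stat2 read 4.59, 3.91, 3.21 and 5.02. For Irf9 and Stat2 the genotype differences were 0.13 and -0.23 without refeeding and 0.70 and 0.64 after it, below 2-fold each time.

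The ISG15 system covers the ubiquitin-like protein ISG15, the protease USP18 that removes it, and HERC6, its main ligase in mice. Isg15 had a scaled signal of 12.1 in Cont, 20.3 in Drp1LiKO, 12.8 in refed Cont and 52.9 in refed Drp1LiKO. The 2 Cont livers were close together and the refed Drp1LiKO liver stood out, with a genotype difference of 0.74 (SE 0.20) before and 2.05 (SE 0.20) after refeeding, and a second Isg15 probe gave 0.96 and 2.17. Usp18 read 2.41, 7.28, 2.20 and 11.1, which is 3.03-fold higher in Drp1LiKO without refeeding and 5.03-fold after it. Herc6 had low signals, at 0.0937, 0.196, 0.0629 and 0.177, and its refed Cont value was not well above background, so the difference after refeeding is a bound of at least 2.07-fold.

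The IFIT proteins bind viral RNA and block its translation, and their genes Ifit2, Ifit3 and Ifit1 are neighbors on chromosome 19. Ifit1 had a scaled signal of 0.772 in Cont, 1.54 in Drp1LiKO, 0.443 in refed Cont and 4.83 in refed Drp1LiKO. Its genotype difference was 0.997 (SE 0.21) without refeeding, just under the 2-fold mark, and 3.45 (SE 0.22) after it, or 10.9-fold. Ifit3 followed the same order with 2.15, 4.06, 1.81 and 11.1, and differences of 0.92 and 2.61. Ifit2, a dimmer probe, read 0.0727, 0.335, 0.0476 and 0.493, with a difference of 2.21 (SE 0.34) without refeeding and at least 2.53 after it. In all 3 the refed Drp1LiKO liver was the highest. The refed Cont liver was the lowest for Ifit1 and Ifit3, while for Ifit2 it was not well above background and cannot be ranked against Cont.

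The OAS family makes the second messenger that activates RNase L, and it was the one group of several genes in which each was called in both feeding states. Of these, Oas3 passed the background filter in the Drp1LiKO livers only, so it could only be called higher. Oas1a had a scaled signal of 3.15 in Cont, 17.9 in Drp1LiKO, 3.70 in refed Cont and 30.4 in refed Drp1LiKO, a difference of 2.50 (SE 0.20) and then 3.04 (SE 0.20). Its second probe gave 2.64 and 2.83. Mice carry close copies of this gene, and a probe may read more than 1 of them. Oasl1, a catalytically inactive relative that restrains IRF7 translation, read 6.66, 16.6, 8.48 and 60.9, with the refed Drp1LiKO liver far above the others (7.18-fold above refed Cont). Oasl2 read 0.540, 2.04, 0.600 and 3.27, with differences of 1.92 and 2.45.

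Oas2 and Oas3, next to each other on chromosome 5, kept the genotype difference but not the order of the feeding states. Oas2 read 0.783, 2.74, 0.357 and 2.33, so that both genotypes were lower after refeeding. Oas3 did not pass the background filter in the Cont livers, and read 0.649 in Drp1LiKO and 0.284 in refed Drp1LiKO. Its genotype difference was therefore at least 10.1-fold without refeeding and at least 3.32-fold after it. The adjacent Oasl2 and Oasl1, also on chromosome 5, had their highest signal in the refed Drp1LiKO liver instead.

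The genes of the Mx GTPases, whose antiviral activity was not measured here, were called after refeeding only. Mx1 had a scaled signal of 0.218 in Cont, 0.406 in Drp1LiKO, 0.143 in refed Cont and 1.02 in refed Drp1LiKO, with differences of 0.90 (SE 0.24) and 2.84 (SE 0.31). Mx2 read 1.17, 1.595, 0.515 and 3.34, with differences of 0.45 (SE 0.20) and 2.70 (SE 0.21). In both, refed Cont was the lowest and refed Drp1LiKO the highest of the 4 livers.

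The nucleic acid sensors and nucleases differed least among the groups of 5 or more genes. None of the 5 was called without refeeding, with differences between -0.13 and 0.20, and 1 was called after it. That one is Eif2ak2, which encodes the double-stranded RNA-dependent kinase PKR. It read 0.593, 0.618, 0.458 and 1.25, so that Cont and Drp1LiKO were close (0.06, SE 0.21) until refeeding (1.44, SE 0.21). Dhx58, encoding the RIG-I regulator LGP2, Zbp1, a sensor of Z-form nucleic acid, and Trex1, the cytosolic DNA exonuclease, reached 0.94, 0.90 and 0.68 after refeeding. Adar, the RNA-editing enzyme, reached 0.31, and its second probe gave 1.001. The second probe of Zbp1 gave 1.31, so that for both genes the call after refeeding depends on the probe.

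Among the other antiviral effectors, Rsad2 and Ifi44 differed most. Rsad2, which encodes viperin, had a scaled signal of 1.78 in Cont, 7.18 in Drp1LiKO, 0.936 in refed Cont and 11.1 in refed Drp1LiKO. Its difference was 2.01 (SE 0.20) without refeeding and 3.56 (SE 0.21) after it, or 11.8-fold, the largest in the refed pair among the genes whose difference is not a bound. Cmpk2, the mitochondrial nucleotide kinase encoded next to it on chromosome 12, read 0.637, 0.935, 0.453 and 1.95, with differences of 0.55 and 2.10. Its second probe gave 1.26 and 2.66, past 2-fold in both states, and 0.73 in place of 1.06 for refeeding in Drp1LiKO. Ifi44 read 0.201, 1.26, 0.225 and 2.28, with the 2 Cont livers nearly level and differences of 2.65 (SE 0.23) and 3.34 (SE 0.24).

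Rtp4, a chaperone of membrane receptors, read 6.64, 9.86, 6.72 and 27.7, with the refed Drp1LiKO liver alone well above the rest. Xaf1, an antagonist of the apoptosis inhibitor XIAP, had differences of 0.96 and 1.91, and Samd9l, a growth regulator, 0.73 and 1.67. Bst2, which encodes tetherin, differed by 0.68 and 0.77, and Lgals3bp, a secreted glycoprotein, by 0.41 and 0.62. Ifitm3, which blocks viral entry, read 44.5, 46.9, 63.8 and 62.1, higher in both refed livers and nearly level between the genotypes. Ifi35, whose product partners with NMI, differed by -0.21 and 0.24.

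PARP9 and DTX3L form a complex of an ADP-ribosyltransferase and a ubiquitin ligase, and PARP14 belongs to the same enzyme family. Parp9 read 3.66, 3.46, 3.32 and 3.60, and Dtx3l read 3.50, 3.01, 3.70 and 3.56, with no genotype difference beyond 2 measurement SEs for either. The sign for Dtx3l after refeeding depended on the probe, since its 3 probes ranged from -0.20 to 0.49. Parp14, beside them on chromosome 16, behaved differently, with 2.90, 3.48, 2.13 and 6.00 and a difference of 1.495 (SE 0.21) after refeeding.

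The chemokine CXCL10, which recruits T cells and NK cells, was among the genes that differed most. Cxcl10 had a scaled signal of 1.601 in Cont, 6.77 in Drp1LiKO, 1.89 in refed Cont and 14.1 in refed Drp1LiKO. The difference was 2.08 (SE 0.20) and 2.89 (SE 0.20), or 4.23-fold and 7.43-fold. A second probe for it, which passed the background filter on 2 arrays, gave a refeeding difference in Drp1LiKO of -0.15 where the probe used gave 1.05, so that its refeeding difference is uncertain.

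The 4 interferon-gamma-type GTPases gave a mixed picture. Gbp3 was higher in Drp1LiKO in both states, with 1.16, 2.69, 0.912 and 2.99 and differences of 1.22 (SE 0.21) and 1.71 (SE 0.21). Its neighbor Gbp2 read 0.883, 1.02, 0.886 and 0.963, nearly level on all 4 arrays. Igtp read 8.99, 7.43, 8.56 and 17.4, and Irgm1 5.29, 6.05, 4.67 and 9.95, and both passed 2-fold only after refeeding (1.02 and 1.09).

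Type I genes had a higher median difference than the interferon-gamma-type genes in both feeding states. Without refeeding the median was 0.73 over 35 genes against 0.20 over 4, and 11 type I genes lay above all 4 interferon-gamma-type genes. After refeeding it was 1.90 against 1.06, with 19 type I genes above all 4 and 3 below all 4. Called were 12 of 35 against 1 of 4 without refeeding and 23 of 35 against 3 of 4 after it. Over all genes measured, 4.31% were 2-fold higher without refeeding and 4.03% after it. With 4 genes, of which Gbp3 was called both times, these medians are a description and were not tested.

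**Figure D3:**
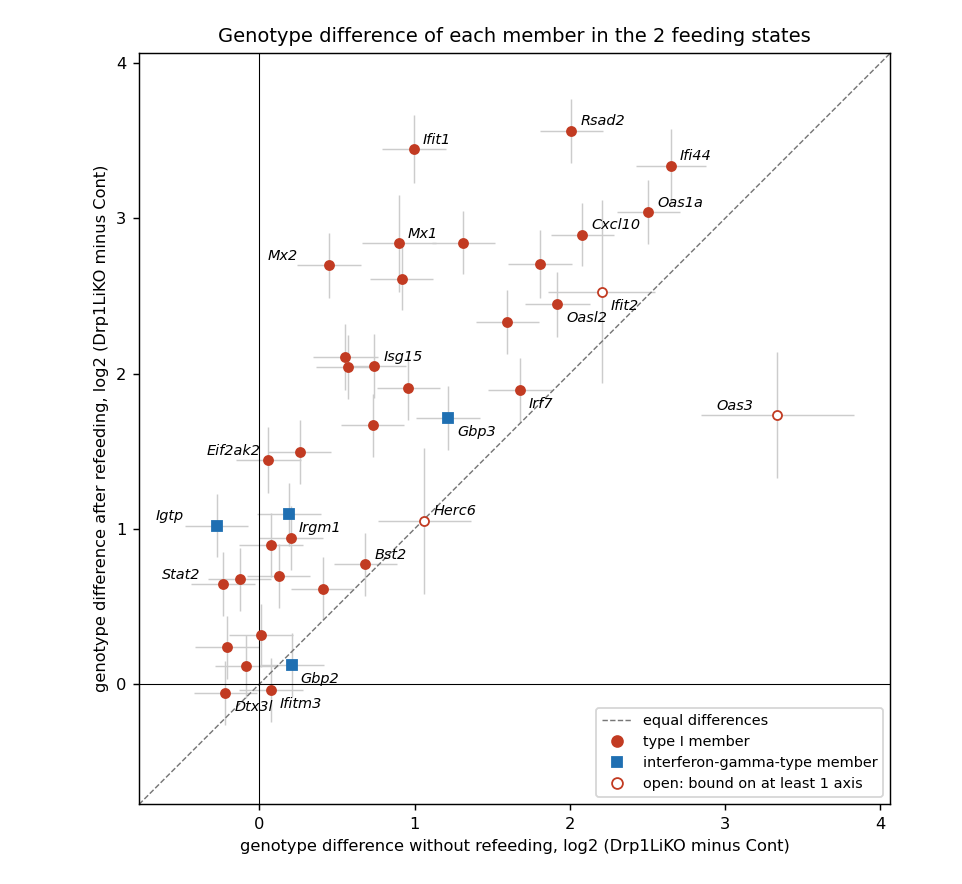
Genotype difference of each gene (log2, Drp1LiKO minus Cont) after refeeding against that without refeeding, with measurement SEs as bars. Red circles are type I and blue squares interferon-gamma-type genes, open symbols are bounds, and the dashed line marks equal differences. Of the 39 points, 35 lie above the dashed line, and Oas3 lies farthest below it, where both of its values are bounds.

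The refeeding differences within each genotype use the same 4 arrays and show from which side the wider gap after refeeding came. In Cont, none of the 37 genes with a difference was 2-fold higher after refeeding, and Mx2 (-1.18) and Oas2 (-1.13) were 2-fold lower, against 3.49% of all genes that were higher and 3.67% that were lower (7.16% in either direction). The median was -0.07, with 1 gene above 2 and 8 genes below -2 measurement SEs, against 15% and 10.4% of all genes. With normexp background correction neither gene stayed past 2-fold. In Drp1LiKO, 11 of 39 genes were 2-fold higher after refeeding and Oas3 was lower (-1.19), against 4.52% of all genes that were higher and 4.74% that were lower (9.26% in either direction). The median was 0.68, with 29 genes above 2 and 1 gene below -2 measurement SEs, against 22.7% and 14.8% of all genes. With values centered on the all-gene median, a setting added once the data had been seen, 7 genes in place of 11 were 2-fold higher. Of the 11, 8 were 2-fold higher under every one of the other scaling, background and probe settings and in the authors' table.

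The 11 genes were Isg15, Ifit1, Ifit3, Oasl1, Mx1, Mx2, Eif2ak2, Cmpk2, Rtp4, Cxcl10 and Igtp. Oasl1 was highest with 1.88 (SE 0.20), and Ifit1 followed with 1.65 (SE 0.20), then Rtp4 with 1.49 and Ifit3 with 1.44. Lower after refeeding in Cont and higher in Drp1LiKO were 18 of 37 genes (48.6%), against 10.98% of all genes with both differences. Ifit1 showed this most, at -0.80 (SE 0.22) in Cont and 1.65 in Drp1LiKO. The 18 are counted by sign alone. Only for Ifit1, Mx2, Rsad2, Cmpk2, Parp14 and Samd9l were both differences beyond 2 measurement SEs. Xaf1 in Cont and Parp9 in Drp1LiKO changed sign under at least 1 scaling, background or probe setting. Of the 13 genes with a called genotype difference already without refeeding, Oasl1 and Cxcl10 are among the 11, whereas Irf7 (0.46), Usp18 (0.60), Rsad2 (0.62), Oasl2 (0.68) and Oas1a (0.76) stayed under 2-fold in Drp1LiKO.

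**Figure D4:**
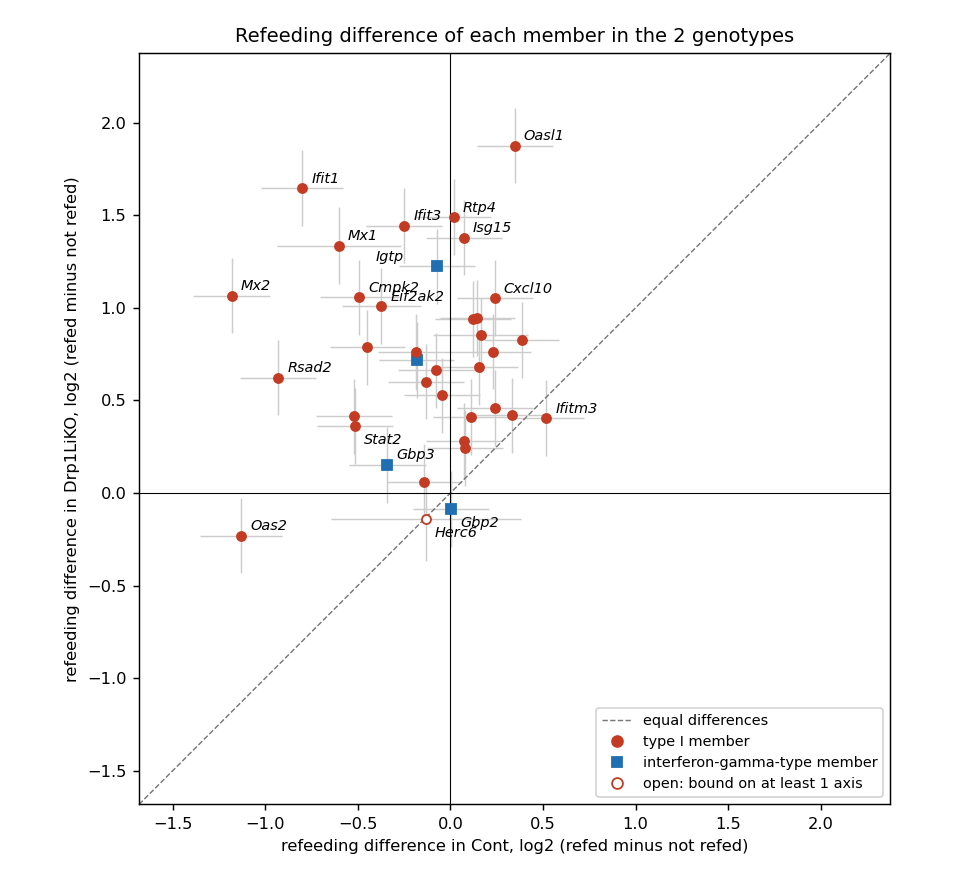
Refeeding difference of each gene (log2, refed minus not refed) in Drp1LiKO against that in Cont for 37 genes, with measurement SEs as bars. Red circles are type I and blue squares interferon-gamma-type genes, the open symbol includes a bound, and the dashed line marks equal differences. The upper left quadrant holds the 18 genes that were lower after refeeding in Cont and higher in Drp1LiKO, with Ifit1, Mx2 and Mx1 among the farthest from the dashed line.

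The interferon genes themselves gave little signal. Of 10 ligands looked for, 9 were on the array and 5 of them, Ifnb1 and Ifng included, were not well above background on any array. Only Ifnl3 was well above it on all 4, at 0.162, 0.124, 0.153 and 0.120, and was lower in Drp1LiKO by less than 2 measurement SEs (-0.38 and -0.35). Of 6 receptor chains, 5 were measured. Ifnar1 differed by -0.43 and -0.73, Ifnar2 by -0.42 and -0.33, Ifngr1 by 0.43 and 0.41, and Ifngr2 by 0.19 and -0.09. Il10rb, a shared chain of the interleukin-10 and interferon-lambda receptors, was the 1 receptor gene called, at 1.19 without refeeding and 0.69 after it.

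Of 8 genes of signal transduction, none was called in either pair. Jak1 (0.04 and 0.27), Tyk2 (0.70 and 0.51) and Irf1 (-0.20 and 0.34) were measured on all arrays. Of 6 negative regulators, Socs1 was called after refeeding, with 0.51 and 1.40. Of 22 further type I interferon-stimulated genes on the array, 19 were measured. Of these, 4 were 2-fold higher without refeeding and 8 after it, against 4.31% and 4.03% of all genes. None was 2-fold lower, against 5.03% and 6.34% of all genes. Called in both pairs were Slfn8 (1.90 and 3.30), Trim30a (1.13 and 1.89), Ifi204 (1.07 and 1.65) and Ifi27l2a (1.20 and 1.36). Called after refeeding only were Ifit3b (0.66 and 2.93), Ifi203 (0.50 and 1.25), Ddx58 (0.23 and 1.18) and Ifih1 (0.58 and 1.17). Ifit3b is a close paralog of Ifit3, and their probes may share transcripts. The medians were 0.50 and 0.82. Of 16 further interferon-gamma-induced genes, 1 was higher without refeeding (Gbp6, 1.08), and after it Gbp4 (1.06) and Irgm2 (1.02) were higher and Tgtp1 (-2.95) lower. Their medians were 0.13 and 0.36.

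**Figure D5:**
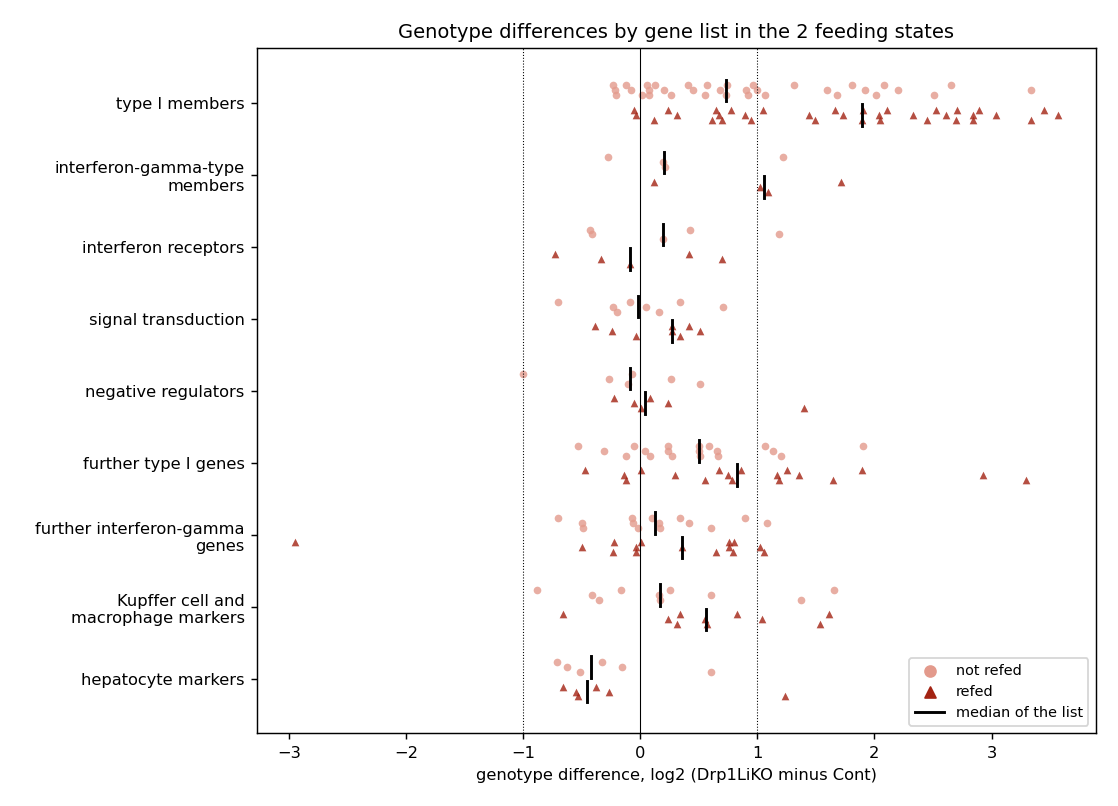
Genotype difference (log2, Drp1LiKO minus Cont) of each gene in 9 lists, without refeeding (light circles) and after refeeding (dark triangles), with the median of each list as a black bar and 2-fold marked by dotted lines. Small vertical shifts only separate points. The medians of the type I genes are 0.73 and 1.90, those of the further type I genes 0.50 and 0.82, and those of the receptors 0.19 and -0.09.

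Markers of liver cell types moved as well. All 6 hepatocyte markers were well above background on every array, and 5 of them were lower in Drp1LiKO without reaching 2-fold, while Cps1 was higher (0.60 and 1.24). The summed scaled signal was 1538 in Cont, 1099 in Drp1LiKO, 1853 in refed Cont and 1289 in refed Drp1LiKO. All 10 Kupffer cell and macrophage markers were well above background, with sums of 103, 115, 111 and 191. Marco (1.65 and 1.61) and Lyz2 (1.38 and 1.53) were called in both pairs, and Vsig4 (1.04) after refeeding, while Adgre1 differed by 0.17 and 0.55 and Clec4f by -0.16 and 0.34. Itgam was lower in both pairs (-0.88 and -0.66), and Csf1r and Timd4 differed by -0.35 and -0.42 without refeeding and by 0.24 and 0.32 after it. Cd5l, the brightest of the 10, differed by 0.25 and 0.82, and Cd68 by 0.60 and 0.57. The sum was thus highest in the refed Drp1LiKO liver. This order was not particular to macrophage markers, since the B cell, neutrophil, stellate cell and cholangiocyte sums given below were highest there too.

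The lymphocyte lists had sums of 20.9, 17.2, 21.6 and 15.9 for T cells, 3.06, 2.75, 3.48 and 2.89 for NK cells, and 0.438, 0.589, 0.843 and 1.08 for B cells. Most of the T cell sum is Cd4 (-0.27 and -0.47). The CD3 chains went both ways. Cd3e was lower in Drp1LiKO (-0.67 and -0.64), while Cd3d differed by 0.98 and 1.07 and Cd3g by at least 1.17 and at least 0.80. Most of the NK cell sum is Nkg7 (-0.31 and -0.34), while Gzma differed by 0.82 and -0.01 and Prf1 by -0.22 and 0.09. The defining markers Cd8a, Trac, Ncr1 and Klrb1c were not well above background on any array. The plasmacytoid dendritic cell list summed to 62.5, 52.7, 56.0 and 49.2, nearly all of it Siglech (-0.25 and -0.19). The neutrophil list summed to 4.72, 2.46, 4.93 and 8.80. S100a8 differed by -1.04 and 0.94, S100a9 by -1.11 and 1.04, Retnlg by -1.59 and -0.74 and Ly6g by 0.08 and 0.02. The sinusoidal endothelial list summed to 53.9, 45.0, 57.0 and 38.5. Its bright markers Clec4g (-0.13 and -0.46), Kdr (-0.81 and -0.93) and Stab2 (-0.05 and -0.24) were lower in Drp1LiKO. The dimmer Lyve1 (0.93 and 0.24) and Pecam1 (0.84 and 0.07) were higher. The stellate cell list summed to 0.732, 1.08, 1.005 and 1.11, and the cholangiocyte list to 0.233, 0.393, 0.340 and 0.635, with Sox9 at 1.24 and at least 1.67. Each sum mostly follows the brightest probes of its list. The part of these cell types in the differences of the interferon-stimulated genes was not tested.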

How the data were processed

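Liver RNA of 4 mouse groups was measured on 4 one-color arrays, all on 1 slide and in 1 scan, and the mapping of arrays to groups came from the sample labels. The deposited scanner files give intensity values, namely processed signals from which Feature Extraction had subtracted the background array by array. The submitters' processing notes name version 9.5.1.1 and the file headers 10.7.1.1. A second deposited table of linear intensity, normalized between arrays by the authors, served as an alternative. Labels and methods name different array designs and RNA kits, and the files match the design of the labels. The labels give the 2 arrays without refeeding as raw data shared with earlier submissions.

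Spots flagged as outliers were left out, which removed 37 of the probes and left 39392. Each signal was divided by its array's 75th percentile and put on the log2 scale, and spots of a probe were averaged. Of several probes, the one that passed the background filter most often was read, with ties settled by mean signal. Of the 39 genes, 26 have 1 probe and 13 several, and 10 of the 11 with several measured probes kept 1 sign over their probes in both genotype differences. The 10 include Cxcl10, whose second probe gave no genotype difference, so its sign could not differ. They also include Herc6, whose second probe was dim in both Cont livers and could only be higher. Levels of different probes are not comparable with each other.

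The members and gene lists were chosen with earlier results of these data known. Named are the 39 members by role, the ligands and receptors, and those genes of the other lists that reached 2-fold in a genotype pair, beside a few of each list for reference. Of these lists, 1 pathway gene and 1 cell marker are not reported here. Differences were called at 2-fold, and a gene counted as measured if it was well above background on at least 1 array of the pair. Genotype and feeding effects over all 4 arrays were fitted with limma 3.58.1 in R 4.3.3 on genes that passed the background filter on 2 arrays or more, with Benjamini-Hochberg adjustment. The procedure was tested on simulated data. Python 3.11.15 with numpy 2.4.6 and pandas 2.3.3 was used for the rest. The number of arrays limits the precision, and no array was saturated at any gene spot. Alternatives were quantile normalization, scaling to the median, normexp with an offset of 50, the authors' table, the median over probes, other filters, a 1.5-fold threshold, an intensity trend and a model with 1 factor. Centering on the median of all genes was chosen after seeing the data. Promoters come from a RefSeq table of GRCm38.p6.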

Additional observations from a re-analysis of the deposited data

Results flagged for a closer look

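For 6 genes the refeeding difference was negative in Cont and positive in Drp1LiKO, each beyond 2 measurement SEs. The difference between the genotypes was not tested, since each group is 1 array. The refeeding difference in Drp1LiKO exceeded that in Cont by 2.45 on the log2 scale for Ifit1 and by 2.25 for Mx2. It was larger by 1.56 for Rsad2, by 1.55 for Cmpk2, by 1.24 for Parp14 and by 0.94 for Samd9l. In each of the 6, refed Cont had the lowest and refed Drp1LiKO the highest signal of the 4 livers. None of the 39 genes had genotype differences of opposite sign beyond 2 measurement SEs in both feeding states.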

How the results depend on the processing

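No paired analysis was possible because each group is 1 array and the labels carry no replicate numbers that join arrays, and leaving out an array leaves no residual degree of freedom. Of 106 recalculated summary values, 95 kept their size and 11 moved. A reversal was scored only for medians and gaps between medians whose reported value exceeded the measurement SE, and none occurred. The counts among the 106 values cannot reverse. With normexp background correction, the median difference of the 39 genes after refeeding was 1.46, the gap between type I and interferon-gamma-type medians after refeeding was 0.56, and 0 genes were called for refeeding in Cont. With the median over all probes, that gap was 0.57 instead of 0.84. At a 1.5-fold threshold, 20 genes were called without refeeding, 5 for refeeding in Cont and 24 for refeeding in Drp1LiKO, against 23.7%, 18.9% and 29.2% of all genes. Limma called none of the 39 genes for genotype in the reported setting, with quantile normalization, the authors' table, the median over probes, no filter, or feeding left out. It called 8 with scaling to the median (2.03% of all genes), 10 with an intensity trend (2.92%), 11 with normexp (3.23%) and 12 of 36 with the filter on all 4 arrays (8.56%). For refeeding it called none of them under any setting run, with 2 of 39 at an unadjusted p under 0.05 in the reported one, against 26.5% of all genes.

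Over the scaling, background and probe settings, 12 genes stayed at least 2-fold higher in Drp1LiKO without refeeding and 24 after it. No called gene changed sign. Among genes that were not called, Adar, Trex1 and Parp9 changed the sign of their genotype difference without refeeding and Ifitm3 after it, under at least 1 of these settings. The refeeding difference changed sign in the same way for 7 of 36 genes in Cont and 6 of 39 in Drp1LiKO. With the values centered on the median of all genes, 16 and 27 genes were 2-fold higher in Drp1LiKO without and after refeeding, and 7 in place of 11 were higher after refeeding within Drp1LiKO. Signal over background limits Herc6, Ifit2 and Oas3, whose values include bounds.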
